A study of Homo sapiens with 6 samples.

Results

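The let-7 family was represented by 5 of the 161 known miRNA rows listed for exosomes of HaCaT cells, an established line of human skin keratinocytes. They were taken as every known row whose name starts with hsa-let-7, and comprised 1 row from the 5p arm of its hairpin, hsa-let-7f-5p, and 4 rows from 3p arms, hsa-let-7a-3p, hsa-let-7c-3p, hsa-let-7g-3p and hsa-let-7i-3p (the species prefix is left out below). Small RNA was sequenced from exosomes, the small vesicles that cells release, of 3 cultures given 0.4 mM hydrogen peroxide (H2O2) and 3 untreated cultures. The labels call the replicates biological, and give the H2O2 replicates 1, 2 and 3 times of 24, 25 and 26 h, against a single 24 h in the series' design. Any effect of these times cannot be told apart from replicate spread, so the 3 libraries were taken as 1 group. The genotype field reads "With type" for all 6 libraries, which came from the same cell line, so none of the comparisons covers another source of keratinocytes. Rows are given in CPM, reads scaled to a library total of 1000000, and a log2 fold change is always H2O2 over untreated.

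The let-7 miRNAs are among the most conserved animal miRNAs and are known for restraining proliferation and promoting differentiation, in part by repressing RAS, MYC and HMGA2. Each is cut from a hairpin precursor. One arm, for let-7 the 5p arm, is usually kept in the Argonaute complex as the guide strand, and the other arm, here called the minor arm, is usually degraded, so that it is found at far lower levels. Bases 2 to 8 of a mature miRNA, the seed, are the main determinant of target pairing.

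The 5 mature sequences are shown because the guide arm and the minor arms differ in seed. They are from RefSeq (GRCh38.p14), where all 5 rows had an entry, and run 5′ to 3′ with the seed in capitals.
let-7f-5p: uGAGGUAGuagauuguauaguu
let-7a-3p: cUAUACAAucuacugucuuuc
let-7i-3p: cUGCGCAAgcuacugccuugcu
let-7g-3p: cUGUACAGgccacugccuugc
let-7c-3p: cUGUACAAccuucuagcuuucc
The 5 rows carried 5 distinct seeds. The seed of let-7f-5p is that of 11 human mature miRNAs in the sequence table, among them the 5p arms of all let-7 hairpins, and let-7f-5p was the only one of the 11 listed. The seed of let-7a-3p is shared with let-7b-3p, let-7f-1-3p and miR-98-3p, and that of let-7g-3p with let-7a-2-3p, none of which was listed. Compared base by base from the 5′ end, the closest pair among the 4 minor arms was let-7g-3p and let-7i-3p, with 4 differences over 21 positions, and let-7a-3p and let-7c-3p had 5 over 21 positions. Against let-7f-5p the minor arms had between 13 and 19 differences. Among all human mature sequences in the table, let-7f-5p differed from let-7a-5p at 1 of 22 positions, and let-7c-3p from let-7a-2-3p at 2 of 22. No source used here states how reads were assigned, so reads of those close relatives may be counted in either name.

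The positions of the hairpins show which rows can come from 1 precursor transcript. In the next 2 sequences the arm that was listed is in capitals.
let-7a-1: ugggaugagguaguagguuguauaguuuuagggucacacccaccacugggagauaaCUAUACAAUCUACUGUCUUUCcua
let-7f-1: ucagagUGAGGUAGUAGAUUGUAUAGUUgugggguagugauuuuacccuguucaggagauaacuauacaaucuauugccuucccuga
The let-7a-1 hairpin lies at chr9:94175957-94176036 and the let-7f-1 hairpin at chr9:94176347-94176433, both on the plus strand, with 310 bases between them (RefSeq, GRCh38.p14). In the GENCODE 29 annotation both lie in an intron of the long non-coding RNA gene AL158152.2. Each mature sequence is also encoded at a second place. let-7a-3p is also cut from let-7a-3, at chr22:46112749-46112822 in an exon of MIRLET7BHG, and let-7f-5p from let-7f-2, at chrX:53557192-53557274 on the minus strand in an intron of HUWE1. Reads of either row can therefore not be placed at 1 locus. The other 3 rows each have 1 hairpin in the table. let-7c lies at chr21:16539828-16539911 in an intron of MIR99AHG, let-7g at chr3:52268278-52268361 on the minus strand in an intron of WDR82, and let-7i at chr12:62603686-62603769 in an intron of AC048341.1, overlapping an exon of LINC01465 on the opposite strand. No let-7 hairpin had both arms listed, so no arm ratio within 1 hairpin could be computed.

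As a share of reads, let-7a-3p was lower and let-7i-3p higher in exosomes of H2O2-treated cells than in exosomes of untreated cells. The let-7a-3p call passed in 6 of the 6 fits that leave out 1 library, but that of let-7i-3p in only 2 of 6. let-7c-3p was also called lower, but it entered the test only through the untreated libraries, where it is high, and its call was lost in 4 of the 6 fits that leave out 1 library. The differences of let-7g-3p and let-7f-5p missed the threshold. CPM is a share of the reads of a library, so it measures neither the number of exosomes nor the RNA in each. A share also changes when other RNAs of the library change. Of the 5 rows, 1 rose and 2 fell, let-7c-3p included, with an edgeR quasi-likelihood test and Benjamini-Hochberg adjustment over all 186 rows with enough counts. Of all 127 known rows tested, 30.7% rose and 48% fell, 78.7% in all. The deposited tables hold rows selected by the authors for a difference between these same libraries. Over the 186 known and predicted rows 37.6% rose and 42.5% fell, 80.1% in all. That split depended on the scaling, with 70 rows higher and 79 lower as reported and 80 higher and 60 lower once miR-1246 reads were left out of the totals. A share of 3 in 5 is below either background, and all 5 directions were those of the authors' lists, so neither is a result about let-7. The selection also makes the adjusted p-values too small by an unknown amount. When they were adjusted as if 2000 miRNAs had been tested, none (0) of the 5 passed. The edgeR count of rows with an unadjusted p under 0.05 among the 5 was also 3, and with DESeq2 the adjusted count was 3. Library totals were 2449856 to 4131478 reads in H2O2 libraries and 2644362 to 5405525 reads in untreated libraries. The 2 groups did not overlap in CPM for 4 of the 5 let-7 rows, 2 higher and 2 lower, where 83.9% of the 161 known rows did not overlap, 37.3% higher and 46.6% lower.

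let-7f-5p, the only guide arm listed, was the most abundant let-7 row in every library. It had 23141, 34026 and 42661 CPM in H2O2 replicates 1, 2 and 3, against 22150, 9487 and 21891 CPM in untreated replicates 1, 2 and 3. The groups did not overlap, but H2O2 replicate 1 lay just above the highest untreated library, and untreated replicate 2 lay well below the other two. The mean was 33276 ± 9782 CPM in H2O2 exosomes and 17843 ± 7238 CPM in untreated exosomes (SD, n = 3 each). The log2 fold change was 0.90 ± 0.52 (SE), which did not pass (edgeR adjusted p = 0.12). Without untreated replicate 2 it was 0.60 (edgeR adjusted p = 0.344), and the highest value over the alternatives was 1.12, with totals that leave out miR-1246 (edgeR adjusted p = 0.0853). By mean level it had rank 2 among the 161 known rows in H2O2 exosomes and rank 3 in untreated exosomes. It took 2.31%, 3.40% and 4.27% of all reads in H2O2 replicates 1, 2 and 3 and 2.22%, 0.949% and 2.19% in untreated replicates 1, 2 and 3.

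let-7a-3p, the minor arm of the let-7a-1 and let-7a-3 hairpins, was the most abundant minor arm in every library. It had 71.4, 85.7 and 29.3 CPM in H2O2 replicates 1, 2 and 3, from 220, 210 and 121 reads, against 283, 296 and 265 CPM in untreated replicates 1, 2 and 3, from 894, 783 and 1434 reads. Every H2O2 library lay below every untreated one, and H2O2 replicate 3 lay lowest. The mean was 62.2 ± 29.3 CPM in H2O2 exosomes and 281 ± 15.4 CPM in untreated exosomes (SD, n = 3 each). It fell by 2.18 ± 0.46 on the log2 scale (SE; edgeR adjusted p = 0.00891), lower in 3 of 3 H2O2 libraries. In H2O2 replicate 3, miR-1246 took 27.4% of all reads, against at most 3.32% in the other 5 libraries. Without that library the log2 fold change of let-7a-3p was -1.84 ± 0.42 (edgeR adjusted p = 0.0125), and with totals that leave out miR-1246 it was -2.08 ± 0.45 (edgeR adjusted p = 0.00381). It passed in 17 of 18 alternatives, all but the adjustment as if 2000 miRNAs had been tested, where the adjusted p was 0.0958 from the same edgeR fit.

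let-7i-3p was the one minor arm whose rise passed the threshold. It had 29.9, 29.8 and 17.4 CPM in H2O2 replicates 1, 2 and 3, from 92, 73 and 72 reads, against 9.48, 12.5 and 4.62 CPM in untreated replicates 1, 2 and 3, from 30, 33 and 25 reads. The groups did not overlap, with the lowest H2O2 library, replicate 3, above the highest untreated one, replicate 2. The mean was 25.7 ± 7.17 CPM in H2O2 exosomes and 8.86 ± 3.96 CPM in untreated exosomes (SD, n = 3 each). The log2 fold change was 1.55 ± 0.53 (SE; edgeR adjusted p = 0.0284), higher in 3 of 3 H2O2 libraries. This call depended on the libraries. Leaving out replicate 1 or 2 of the H2O2 group ended it, with edgeR adjusted p = 0.082 and 0.0564, as did leaving out replicate 1 or 3 of the untreated group, with 0.0658 and 0.0562. Median-of-ratios scaling ended it too, at 1.20 on the log2 scale (edgeR adjusted p = 0.0616).

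let-7c-3p and let-7g-3p were near the detection floor, taken as 3 reads in a library, which is 0.555 to 1.22 CPM. let-7c-3p, the minor arm of the let-7c hairpin, had 4, 2 and 4 reads in H2O2 replicates 1, 2 and 3, or 1.30, 0.816 and 0.968 CPM, against 7, 17 and 18 reads in untreated replicates 1, 2 and 3, or 2.21, 6.43 and 3.33 CPM. The groups did not overlap in CPM, but by counting error alone the value of untreated replicate 1 had an exact 95% Poisson interval of 0.89 to 4.56 CPM, which takes in the value of H2O2 replicate 1. It fell by 1.89 ± 0.63 on the log2 scale (SE; edgeR adjusted p = 0.0266). It reached 5 counts in none (0) of the H2O2 libraries and so entered the test only through the untreated ones, and it did not pass without any 1 of the H2O2 libraries or without untreated replicate 2, where its log2 fold change was -1.42 (edgeR adjusted p = 0.0883). With limma and a pseudocount of 5 CPM the value was -0.55 (adjusted p = 0.0682). let-7g-3p, the minor arm of the let-7g hairpin, had 7, 18 and 14 reads in H2O2 replicates 1, 2 and 3, or 2.27, 7.35 and 3.39 CPM, against 5, 7 and 7 reads in untreated replicates 1, 2 and 3, or 1.58, 2.65 and 1.29 CPM. H2O2 replicate 1 lay below untreated replicate 2, so the groups overlapped, and the log2 fold change of 1.24 ± 0.63 did not pass (edgeR adjusted p = 0.0855). It was 0.68 without H2O2 replicate 2, the highest library.

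**Figure D1:**
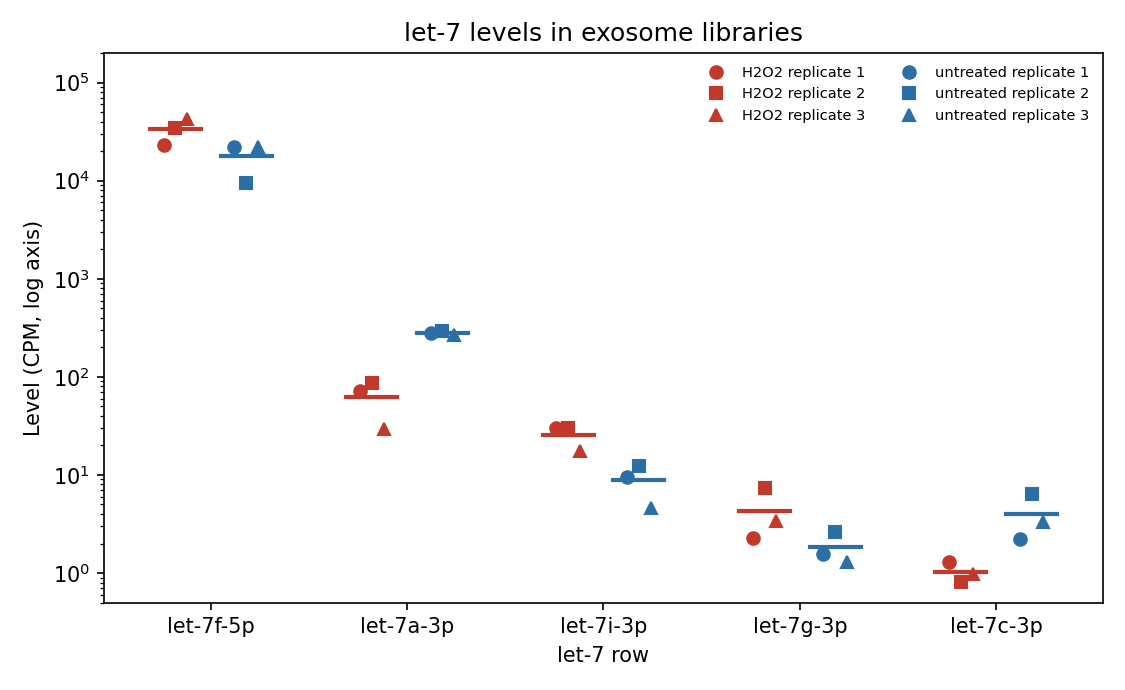
Level of each let-7 row in CPM (log axis) in the 3 H2O2 (red) and 3 untreated (blue) libraries, with a symbol per replicate and a bar at the group mean. The H2O2 and untreated libraries of let-7a-3p are the farthest apart, at 29.3 to 85.7 CPM against 265 to 296 CPM, and those of let-7g-3p overlap.

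In order of mean level over the 6 libraries the rows were let-7f-5p, let-7a-3p, let-7i-3p, let-7g-3p and let-7c-3p, at 25559, 172, 17.3, 3.09 and 2.51 CPM. A read covers 1 mature miRNA, so these levels need no length scaling, but ligation and amplification can favour some sequences, and levels of different rows compare reads and not molecules. let-7a-3p lay above let-7i-3p in each of the 6 libraries, but across H2O2 libraries the 2 rows overlapped, since let-7a-3p had 29.3 CPM in replicate 3 and let-7i-3p 29.9 CPM in replicate 1. The last 2 changed places with the group. In H2O2 exosomes let-7g-3p, at 4.34 ± 2.67 CPM, lay above let-7c-3p, at 1.03 ± 0.25 CPM, in 3 of 3 libraries, and in untreated exosomes let-7g-3p, at 1.84 ± 0.71 CPM, lay below let-7c-3p, at 3.99 ± 2.18 CPM, in 3 of 3 libraries (SD, n = 3 each). For each read of the 4 minor arms together there were 221, 275 and 835 let-7f-5p reads in H2O2 replicates 1, 2 and 3 and 74.9, 29.9 and 79.7 in untreated replicates 1, 2 and 3.

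To compare the minor arms with the guide arm without using the library totals, each row was set against the let-7f-5p reads of the same library. The authors listed let-7f-5p as higher and let-7a-3p and let-7c-3p as lower in these same libraries. A fall of both ratios was therefore set by the selection of rows. The size of each fall also includes the rise of let-7f-5p, 0.90 on the log2 scale, which did not pass. For let-7a-3p there were 30.9, 25.2 and 6.87 reads per 10000 let-7f-5p reads in H2O2 replicates 1, 2 and 3, against 128, 312 and 121 in untreated replicates 1, 2 and 3. Every H2O2 library lay below every untreated one, and the means were 21.0 ± 12.5 and 187 ± 108 in H2O2 and untreated exosomes (SD, n = 3 each). An edgeR quasi-likelihood fit of all other rows, with the let-7f-5p count in place of the library total, gave the change of this ratio as -3.16 ± 0.84 on the log2 scale (SE; adjusted p = 0.00245), and it passed in 11 of 11 alternatives. Without H2O2 replicate 3, the lowest library, it was -2.74, and without untreated replicate 2, the highest, -2.57. For let-7c-3p the ratio changed by -3.08 ± 0.99 (edgeR adjusted p = 0.00649), with 0.561, 0.24 and 0.227 reads per 10000 in H2O2 replicates 1, 2 and 3 and 0.999, 6.78 and 1.52 in untreated replicates 1, 2 and 3. This value rests on 2 to 4 reads in each H2O2 library, and the row entered the fit only through the untreated ones. It was -1.94 without untreated replicate 2 (edgeR adjusted p = 0.0573) and did not pass without H2O2 replicate 2 either, at -2.92 (edgeR adjusted p = 0.0539).

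The ratios of the other minor arms to let-7f-5p did not pass. let-7i-3p had 12.9, 8.76 and 4.09 reads per 10000 let-7f-5p reads in H2O2 replicates 1, 2 and 3, against 4.28, 13.2 and 2.11 in untreated replicates 1, 2 and 3. The groups overlapped, since untreated replicate 2, where let-7f-5p was lowest, lay above all H2O2 libraries, and the ratio changed by 0.44 ± 0.88 on the log2 scale (edgeR adjusted p = 0.73). Without untreated replicate 2 it was 1.43. let-7g-3p had 0.982, 2.16 and 0.794 in H2O2 replicates 1, 2 and 3 and 0.714, 2.79 and 0.592 in untreated replicates 1, 2 and 3, with a change of 0.12 ± 0.90 (edgeR adjusted p = 0.941). The SEs are wide, so these 2 ratios may differ in either direction.

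Of the 126 other known rows, 7.14% rose and 52.4% fell relative to let-7f-5p, 59.5% in all. The groups of the ratio did not overlap for 2 of the 4 minor arms, both lower, where they did not overlap for 60.6% of the 160 other listed known rows, 10% higher and 50.6% lower. A fall against let-7f-5p was thus common among the listed rows, and the 2 falls among 4 minor arms, 1 of them that of let-7c-3p with the limit above, are near that share. The spread of let-7f-5p itself enters every ratio, so the rows of that fit are not independent and its p-values can be too small. For let-7a-3p the SE was wider than in the main fit, 0.84 against 0.46, and the change was smaller relative to its SE. Its unadjusted edgeR p was nonetheless smaller, 0.000172 against 0.00091. The passes of the ratio under the alternatives carry the same limit. The let-7a-3p and let-7c-3p ratios gave exact two-sided permutation p = 0.1 each, and let-7i-3p and let-7g-3p gave exact p = 0.7 each. The smallest p that 3 against 3 libraries allow is 0.1. Adjusted over the 4 arms these became 0.2, 0.2, 0.7 and 0.7.

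**Figure D2:**
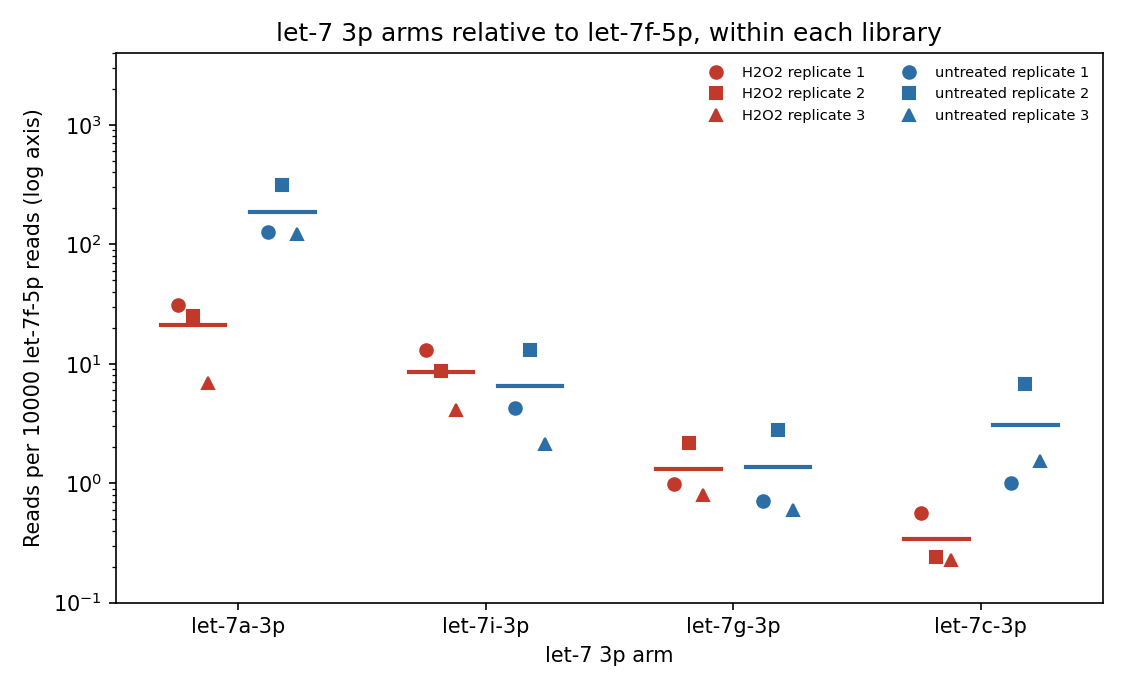
Reads of each let-7 minor arm per 10000 let-7f-5p reads of the same library (log axis), with a symbol per replicate and a bar at the group mean, H2O2 in red and untreated in blue. For let-7a-3p the H2O2 libraries lie between 6.87 and 30.9 and the untreated ones between 121 and 312, while the groups of let-7i-3p and let-7g-3p overlap.

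The minor arms were also set against each other, as a description, since their directions differ by the choice of rows. let-7a-3p made up 68.1%, 69.3% and 57.3% of the let-7 minor-arm reads in H2O2 replicates 1, 2 and 3, against 95.5%, 93.2% and 96.6% in untreated replicates 1, 2 and 3. The highest upper bound of the exact 95% binomial intervals was 74.5% among H2O2 libraries, in replicate 2, and the lowest lower bound among untreated libraries was 91.3%, in replicate 2, so the groups were apart by more than the counting error. let-7i-3p made up 28.5%, 24.1% and 34.1% in H2O2 replicates 1, 2 and 3 and 3.21%, 3.93% and 1.68% in untreated replicates 1, 2 and 3. let-7c-3p made up 1.26 ± 0.62% in H2O2 exosomes and 1.33 ± 0.65% in untreated exosomes, and let-7g-3p 4.91 ± 2.40% and 0.613 ± 0.193% (SD, n = 3 each). These shares rest on 323, 303 and 211 reads in H2O2 replicates 1, 2 and 3 and 936, 840 and 1484 in untreated replicates 1, 2 and 3. The 4 arms together were at 93.2 ± 37.7 CPM in H2O2 exosomes and 296 ± 21.6 CPM in untreated exosomes, a sum made up mainly of let-7a-3p. Intervals and floors cover counting error only, because reads amplified without molecular identifiers are not independent molecules.

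**Figure D3:**
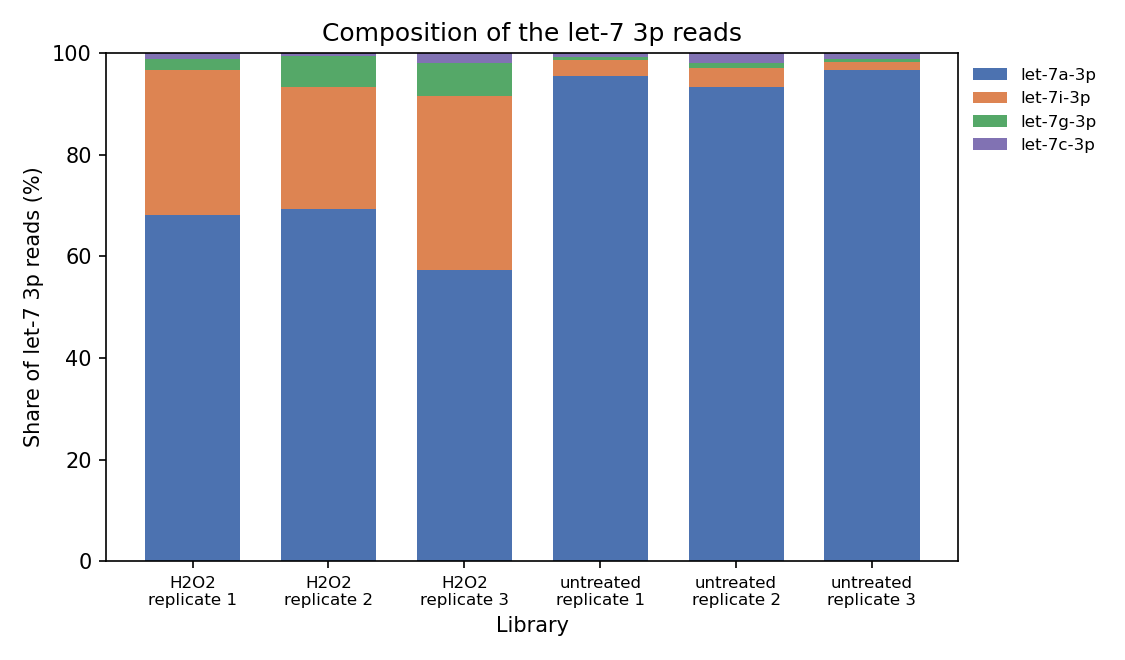
Share of each of the 4 minor arms among the let-7 minor-arm reads of a library, in %, with H2O2 libraries at left and untreated libraries at right. let-7a-3p holds 57.3% to 69.3% of the reads in H2O2 libraries and 93.2% to 96.6% in untreated ones, and let-7i-3p most of the rest in H2O2 libraries.

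Several let-7 hairpins lie beside miR-99, miR-100 and miR-125 hairpins, and members of such a cluster can be cut from 1 transcript. Of 9 hairpins on a list of such neighbours, and of rows sharing a let-7 seed, 5 rows were listed, all of them neighbours. They were miR-99a-5p, miR-125a-5p, miR-125a-3p, miR-125b-1-3p and miR-125b-2-3p, which come from 4 of the 9 hairpins. All 5 fell, where 48% of all known rows tested did. The authors listed these rows for a difference between these same libraries, and miR-125a-5p and miR-125a-3p are arms of 1 hairpin. The shared direction is therefore not a result about the neighbours. Their median log2 fold change was -1.44, against -1.23 over the 127 known rows tested and 0.90 over the 5 let-7 rows. Over all 186 known and predicted rows tested it was 1.03. Because rows were selected for the size of their change, such a median does not give a typical shift. Only 1 of the 5, miR-125b-1-3p, passed without H2O2 replicate 1, and 3 passed without untreated replicate 2.

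The cluster of let-7c was the one with both a let-7 row and its neighbours listed. miR-99a-5p, whose hairpin ends 658 bases before that of let-7c in the same intron of MIR99AHG, was at 2056, 2731 and 2571 CPM in H2O2 replicates 1, 2 and 3, against 4230, 7016 and 5976 CPM in untreated replicates 1, 2 and 3. Every H2O2 library lay below every untreated one, and it fell by 1.23 ± 0.40 on the log2 scale (SE; edgeR adjusted p = 0.0262). miR-125b-2-3p, the minor arm of a hairpin farther along the same host gene, was at 54.2, 46.1 and 83.0 CPM in H2O2 replicates 1, 2 and 3, against 134, 172 and 191 CPM in untreated replicates 1, 2 and 3, and it fell by 1.44 ± 0.39 on the log2 scale (SE; edgeR adjusted p = 0.0193). The miR-99a-5p call was lost without H2O2 replicate 1 (edgeR adjusted p = 0.0857), without untreated replicate 2 (0.0759) and with totals that leave out miR-1246, at -1.04 on the log2 scale (0.0557). Within a library there was 1 let-7c-3p read to far more miR-125b-2-3p reads, with a ratio of 0.0178 ± 0.0061 in H2O2 exosomes and 0.0238 ± 0.0118 in untreated exosomes (SD, n = 3 each), and the groups of that ratio overlapped.

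The other neighbours fell beside let-7 hairpins that had no row of their own listed from that place. miR-125b-1-3p, from the host gene MIR100HG that also holds let-7a-2, was at 33.4 ± 2.93 CPM in H2O2 exosomes and 104 ± 23.6 CPM in untreated exosomes (SD, n = 3 each), and fell by 1.64 ± 0.39 on the log2 scale (SE; edgeR adjusted p = 0.0119). miR-125a, beside let-7e in an intron of SPACA6, was listed with both arms. The guide arm miR-125a-5p was at 1240 ± 658 CPM in H2O2 exosomes and 2937 ± 522 CPM in untreated exosomes, and fell by 1.24 ± 0.49 on the log2 scale (SE; edgeR adjusted p = 0.0429), and miR-125a-3p was at 21.6 ± 2.74 and 58.8 ± 16.4 CPM in H2O2 and untreated exosomes (SD, n = 3 each), and fell by 1.44 ± 0.42 on the log2 scale (SE; edgeR adjusted p = 0.0208). The miR-125a-5p call was lost in 5 of the 6 fits that leave out 1 library, with edgeR adjusted p = 0.0517 to 0.119, and its value was -0.88 without H2O2 replicate 3. Of the 5 hairpins with both arms among the known rows, 3 had both arms listed in the same direction and 2 in opposite directions.

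**Figure D4:**
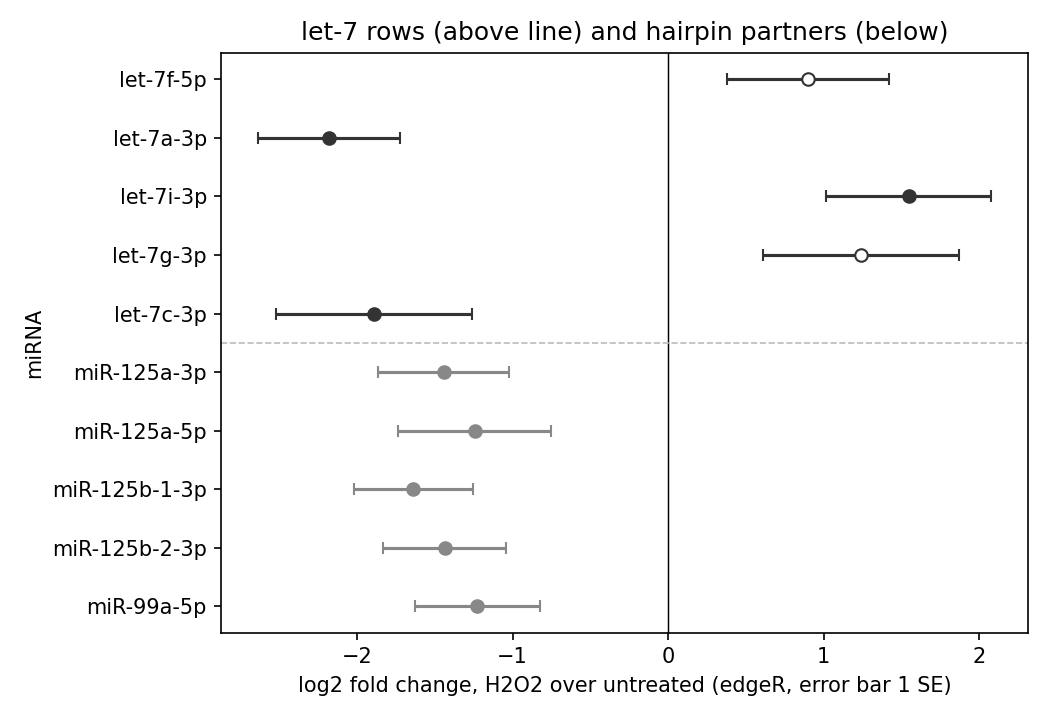
log2 fold change, H2O2 over untreated, with 1 SE, for the let-7 rows (above the dashed line, dark) and the listed hairpin neighbours (below it, grey), with filled circles for rows that passed the edgeR test and open circles for rows that did not. The 5 neighbours lie between -1.64 and -1.23, while the let-7 rows lie on both sides of 0, from -2.18 to 1.55.

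The let-7 3p rows were also set beside all rows named for the same arm. Of the 59 known 3p rows tested 12 rose and 29 fell, with a median log2 fold change of -1.44, and of the 45 known 5p rows 15 rose and 24 fell, with a median of -1.23. In the 4 let-7 3p rows the median was -0.33. A 3p name does not mark the minor arm of every hairpin, so these counts describe names and not strands.

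The known rows with the most similar course over the 6 libraries were found by the mean absolute difference of log2(CPM + 1) after each row was centred on its own mean. This is a description of 6 libraries, in which all rows share depth and selection. Nearest to let-7f-5p were miR-3065-5p, miR-500b-5p and miR-374a-3p, at 0.26, 0.26 and 0.27, where the median over the 126 other rows was 1.05. Nearest to let-7a-3p were miR-221-3p, miR-486-5p and miR-125b-1-3p, at 0.30, 0.36 and 0.42, against a median of 0.81. Nearest to let-7i-3p were miR-590-3p, miR-7704 and miR-151b, at 0.20, 0.20 and 0.27, against a median of 1.30. For let-7g-3p they were miR-362-3p, miR-9-5p and miR-20a-3p, at 0.23, 0.29 and 0.31, and for let-7c-3p miR-378d, miR-6514-5p and miR-125b-1-3p, at 0.14, 0.17 and 0.23, but at levels this low the added 1 CPM flattens the course. Among the let-7 rows, let-7i-3p and let-7g-3p were the closest pair, at 0.39, and let-7a-3p and let-7i-3p the farthest apart, at 1.89. The authors listed the first pair in the same direction and the second in opposite directions, and the added 1 CPM flattens let-7g-3p here too.

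In the authors' deposited table the log2 fold changes were 1.05 for let-7f-5p, 1.39 for let-7g-3p, 1.73 for let-7i-3p, -2.03 for let-7a-3p and -1.69 for let-7c-3p, with unadjusted p-values of 0.0187, 0.033, 0.000635, 1.26e-05 and 0.0117 in the authors' deposited table. Each is a little above the value of the edgeR fit, in the direction of H2O2. Of the 115 rows that the authors predicted from reads, none (0) repeated the counts of a let-7 row. One (1) of them cites let-7 of Caenorhabditis elegans in its name and was not taken as a member. It was singled out after its values were seen, and it had 37, 17 and 12 reads in H2O2 replicates 1, 2 and 3 and 4, 9 and 8 in untreated replicates 1, 2 and 3.

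Levels of the listed cell type markers are given here as values, whether or not they moved with the let-7 rows. Of 7 keratinocyte hairpins 2 had a listed row, miR-31-3p, which rose, and miR-205-3p, which fell, and the tables hold selected rows, so they cannot check the cell label. Red cell miRNAs were listed for 2 of 3 hairpins, and miR-451a and miR-486-5p both fell, with summed levels of 7.26 to 13.5 CPM in H2O2 libraries and 30.7 to 52.2 CPM in untreated libraries. The liver miRNA miR-122-5p fell, at 4.55 to 9.80 CPM in H2O2 libraries and 19.6 to 118 CPM in untreated libraries. The muscle miRNAs were listed for 2 of 3 hairpins, at 211 CPM in sum in H2O2 replicate 2 and 1.95 to 12.9 CPM in the other libraries, and miR-133a-3p was at 0 in H2O2 replicate 1 and all untreated libraries. Both neural hairpins had a listed row. Their sums were 3887 to 5511 CPM in H2O2 libraries and 1745 to 2252 CPM in untreated libraries, nearly all miR-9-5p, which rose. The other neural row, miR-124-3p, had 14 reads in H2O2 replicate 2, where the muscle miRNAs were highest, and 0 or 1 in every other library. The part of these RNAs in the let-7 values was not tested.

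**Figure D5:**
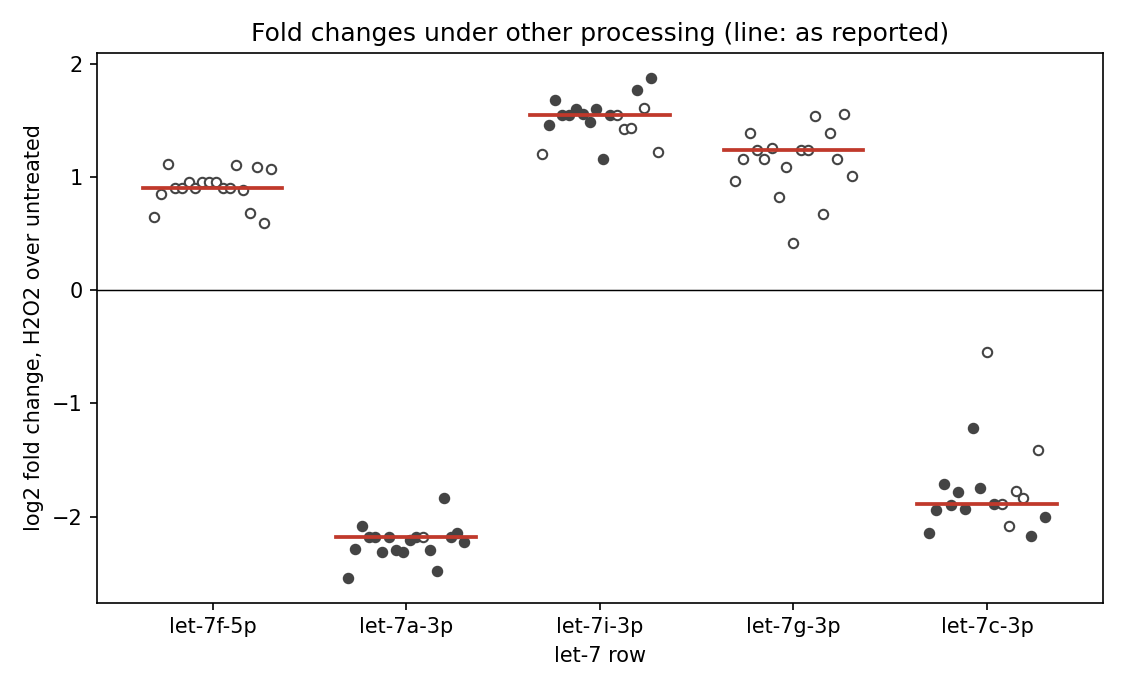
log2 fold change, H2O2 over untreated, of each let-7 row as reported (red line) and under each alternative processing or with a library left out (circles, filled where the adjusted p was under 0.05). let-7a-3p is filled in 17 of 18 alternatives, let-7i-3p in 12 of 18 and let-7c-3p in 11 of 17, and no circle is filled for let-7f-5p or let-7g-3p.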

How the data were processed

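The submitters' processing notes name Bowtie 1.1.1, cutadapt, FastQC and bcl2fastq. Exosomes were isolated by ultracentrifugation, per the series' design text, and per the labels' protocols Trizol RNA went into NEBNext small RNA libraries. No source used here gives the genome build, miRNA catalogue or counting rules. The authors' deposited tables hold raw counts and, per the file headers, normalized counts, which equal CPM of 1 total per library. Per row, the authors also deposited a fold (ratio), its log2 value and an unadjusted p-value. The largest p was 0.0490 to 3 digits and no absolute log2 fold change was below 1.03, so the tables used here hold rows selected for a difference.

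Library totals were recovered as count divided by CPM. Rows needed 5 counts or more in 3 or more libraries, and the 186 that passed, known and predicted, were fitted with edgeR 4.0.16 in R 4.3.3 (estimateDisp, glmQLFit, glmQLFTest, two-sided), with those totals, no composition factor, Benjamini-Hochberg adjustment over all tested rows and a threshold of 0.05. SE is the log2 fold change divided by the root of F. Ratios to let-7f-5p used its counts as totals. The fit was tested on simulated rows, most of them unchanged. That differs from the selected rows used here, so the simulation gives no error rate for them. Alternatives were other scalings (median-of-ratios, TMM, totals without miR-1246), filters (none, 20 counts), known rows only, a replicate block, DESeq2 1.42.0, limma 3.58.1 on log2(CPM + 1), log2(CPM + 0.1) and log2(CPM + 5) or on the log2 ratio, adjustment to 2000 tests, and each library left out with the rows kept. Named are all let-7 rows, listed hairpin neighbours and markers, and the 3 nearest courses for each let-7 row. Members, lists and alternatives were chosen with earlier results of these data known.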

Additional observations from a re-analysis of the deposited data

How the results depend on the processing

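For the levels in CPM, the direction of every let-7 log2 fold change was the same under all alternatives in which it could be computed. The rows were listed for a difference between these same libraries, so an unchanged direction was likely beforehand. Adjusted as if 2000 miRNAs had been tested, 0 of the 5 let-7 rows and 0 of the 5 neighbours passed, from unchanged fold changes of -2.18 for let-7a-3p, -1.89 for let-7c-3p and 1.55 for let-7i-3p. let-7i-3p did not pass with median-of-ratios scaling (1.20), nor let-7c-3p with limma and a pseudocount of 5 (-0.55). With at least 20 counts let-7c-3p and let-7g-3p left the test, which leaves 1 minor arm past the threshold relative to let-7f-5p in place of 2.

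With 1 library left out, the log2 fold change ranged from -2.48 to -1.84 for let-7a-3p, from -2.17 to -1.42 for let-7c-3p, from 1.22 to 1.87 for let-7i-3p, from 0.60 to 1.104 for let-7f-5p and from 0.68 to 1.56 for let-7g-3p. Between 1 and 2 let-7 rows and between 1 and 5 neighbours then passed. Relative to let-7f-5p the range was -3.55 to -2.57 for let-7a-3p, -3.56 to -1.94 for let-7c-3p, -0.01 to 1.43 for let-7i-3p and -0.44 to 0.98 for let-7g-3p, with 1 to 2 arms passing. Signs reversed for let-7g-3p without H2O2 replicate 2 (-0.44) and without replicate 1 (-0.20) or 3 (-0.31) of the untreated group, and for let-7i-3p without untreated replicate 3 (-0.0050). None of these passed, and the cause was not tested.

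The replicate block left 3 let-7 rows, 2 relative arms and 5 neighbours past the threshold, with -2.31 for let-7a-3p. Same-numbered libraries correlated over rows at 0.20, 0.08 and 0.23, and differently numbered ones at -0.25 to 0.12. H2O2 replicates 1 and 3 correlated best with the same number, and H2O2 replicate 2 with untreated replicate 1. These values do not settle whether the numbers mark pairs, and the main fit did not take them as pairs. Scaling moved the median of the known rows, which was -1.23, to -1.48 with median-of-ratios, -1.29 with TMM and -1.04 without miR-1246 reads. With totals that leave out miR-1246, 4 of the 5 neighbours passed, without miR-99a-5p (-1.04). let-7c-3p and let-7g-3p rest on few reads, and the selection of rows limits every adjusted p.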
